A study of Rattus norvegicus with 6 samples.

Results

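The Wnt signalling genes described here are 45 genes chosen by symbol: 14 Wnt ligands, 7 receptors, β-catenin with 4 TCF/LEF transcription factors, 9 secreted antagonists, 4 feedback target genes, and 6 R-spondins and LGR receptors. All 45 symbols were found among the 34538 genes of the deposited table, each in a single row. They were measured in 6 RNA libraries from fractured rat femurs, 3 from fractures given MgPA-Gel and 3 from fractures given gel only (Gel). The series is about an injectable adhesive gel built on coordination compounds of a plant phosphate; the labels name the treated group MgPA-Gel, do not spell out MgPA, and give the Gel samples as the control.

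Both groups were female Sprague Dawley rats, an outbred stock, and both carried the same osteoporosis and fracture model. The ovaries were removed at 8 weeks of age, and 12 weeks later the left femur was cut across its midshaft and held with a 1.2 mm intramedullary nail, with the gel injected around the aligned ends. RNA was sequenced, after poly-T selection, from 1 cm of femoral tissue spanning the break. Rats without gel, without ovariectomy or without fracture were not analysed here, and the sources used here do not give the day of harvest. Whether each library is 1 animal is not stated in the labels. The p-values thus set a difference between the groups only against the scatter of these libraries. How much of that scatter lies between animals is not known, and it may be technical.

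Wnt proteins are secreted, lipid-modified ligands that bind Frizzled receptors with the co-receptors LRP5 and LRP6. In the canonical branch this stops the destruction complex from degrading β-catenin, which then enters the nucleus and works with TCF/LEF factors to switch on target genes, several of which feed back to dampen the signal. In bone, canonical Wnt signalling drives osteoblast formation, and it is held back by secreted antagonists. R-spondins amplify the signal by binding LGR receptors and removing the ubiquitin ligases that clear Frizzled from the cell surface.

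TCF/LEF factors bind a short DNA core, and a search of promoters for the letters CTTTGAT on either strand shows which members carry it near their start. RefSeq promoter windows of 300 bases (250 before and 50 after the gene start, build GRCr8) were found for 31 of the 45 genes, and 3 of them held the motif, against 3.63% of all 33469 windows. These 3 were Tcf7, a TCF factor, and Axin2 and Nkd1, both feedback inhibitors. Of each of these 3 windows, the 59 bases around the motif are printed 5′ to 3′ on the gene's strand, with the motif in capitals, because TCF/LEF factors recognise these letters and Axin2 and Nkd1 are classic targets whose levels are given below. A match is a description of the letters and not of binding.
Tcf7 (chr10:36954251-36954309, minus strand, motif starting 4 bases before the gene start): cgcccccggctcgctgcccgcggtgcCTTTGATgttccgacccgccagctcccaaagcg
Axin2 (chr10:94398627-94398685, plus strand, motif starting 132 bases before the gene start): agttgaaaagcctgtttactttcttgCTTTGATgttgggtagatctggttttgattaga
Nkd1 (chr19:34722955-34723013, minus strand, motif starting 141 bases before the gene start): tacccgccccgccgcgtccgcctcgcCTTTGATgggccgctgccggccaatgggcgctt

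Total gene counts ran from 15.4 to 18.2 M (mega) in the MgPA-Gel libraries and from 13.6 to 16.2 M in the Gel libraries. The tissue label fitted its markers, with all 8 osteoblast markers detected and a summed level of 41500 to 66400 CPM in MgPA-Gel and 57900 to 108000 CPM in Gel. CPM is counts per M counts, with library sizes adjusted by TMM. Most of that sum came from 1 collagen gene, Col1a1, at 31300 CPM in MgPA-Gel 1 and 98400 CPM in Gel 3, the libraries of lowest and highest sum. Muscle was present unevenly: 6 of 8 fibre markers were found, and their summed level was 29700, 88.9 and 1170 CPM in MgPA-Gel 1, 2 and 3 and 409, 217 and 9.16 CPM in Gel 1, 2 and 3. Genes of the mitochondrial chromosome took 25.9% of counts in MgPA-Gel 1 and 24% in Gel 1, and between 5.29% and 8.83% in the other 4 libraries. In bulk tissue, fewer cells of a type and less RNA per cell cannot be told apart.

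Within the 45 genes, a few gave most of the ligand, receptor and antagonist RNA, and no member passed the test between MgPA-Gel and Gel. Of the 45 genes, 37 had enough counts to be tested and 8 did not (Wnt1, Wnt2, Wnt3, Wnt3a, Fzd8, Dkk1, Sostdc1 and Notum). The edgeR package's quasi-likelihood test, two-sided, called 0 of the 37 at a Benjamini-Hochberg adjusted p of 0.05 over all 14818 genes tested (each adjusted p = 0.998), and it called 0% of all genes. At an unadjusted p under 0.05 there was 1 member, Rspo1, lower in MgPA-Gel, against 2.63% of all genes tested (1.78% higher and 0.844% lower). DESeq2 and limma-voom each called 0 members. Members with a higher fitted mean in MgPA-Gel numbered 20 and those with a lower one 17. Their median log2 fold change was 0.07, beside 54.8% higher and a median of 0.03 over all genes tested.

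**Figure D1:**
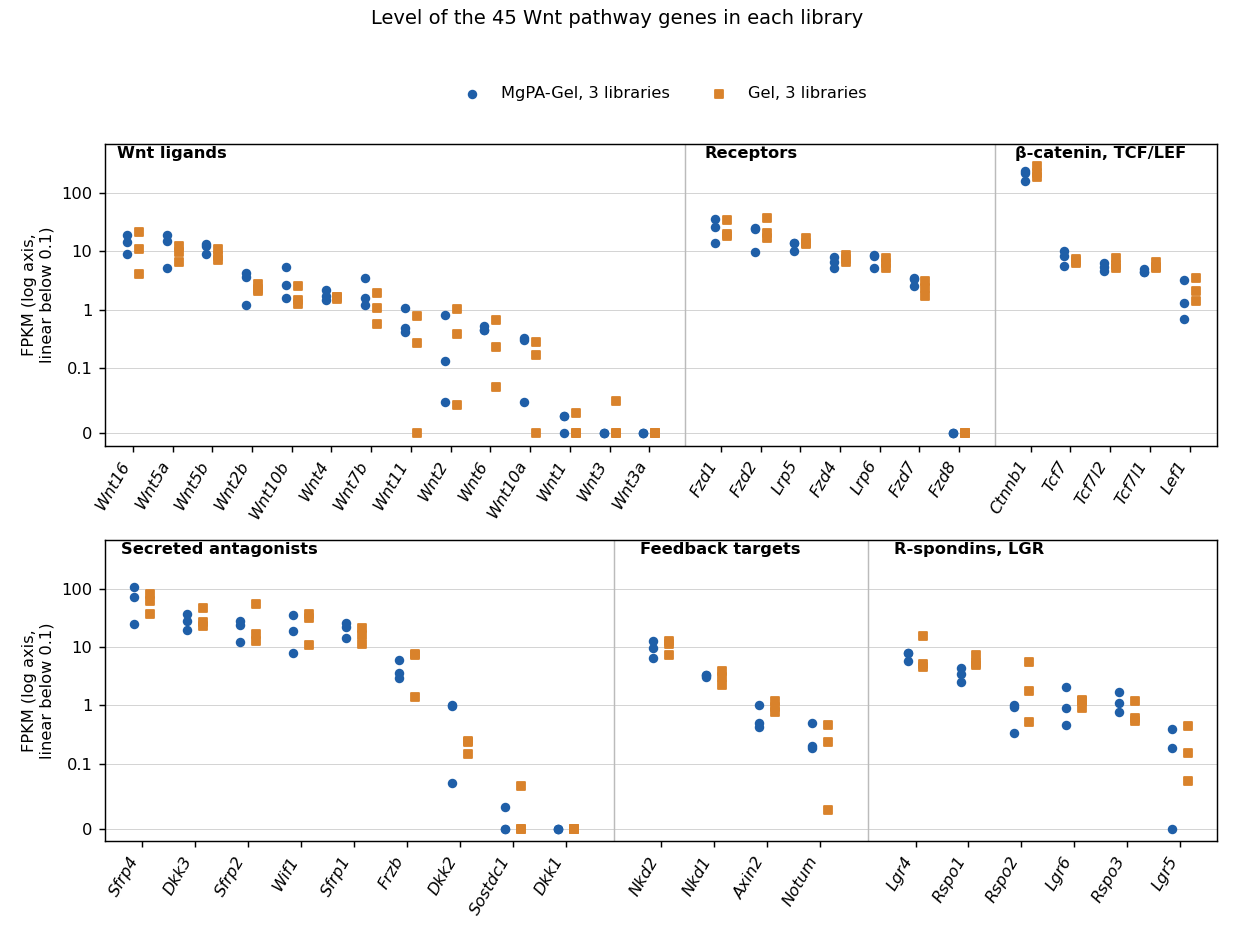
Level of each of the 45 genes in FPKM (log axis, linear below 0.1), by role and by falling mean, with the 3 MgPA-Gel libraries as circles and the 3 Gel libraries as squares. Ctnnb1 stands highest at 164 to 293 FPKM, Sfrp4 leads the antagonists, Wnt16, Wnt5a and Wnt5b lead the ligands, and Wnt3a, Fzd8 and Dkk1 lie at 0 in every library.

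Among the 14 ligands, Wnt16, Wnt5a and Wnt5b made up most of the summed RNA. FPKM, fragments per kilobase of gene and per M fragments, allows levels of different genes to be compared. Library sizes implied by the deposited FPKM differed from total counts (16.0 against 18.2 M in MgPA-Gel 1, 17.3 against 15.8 M in Gel 2). The deposited FPKM were thus already adjusted between libraries. The 3 genes averaged 13.2, 11.3 and 10.1 FPKM over the 6 libraries, and the next of the 14 ligands was Wnt2b at 2.73 FPKM. Wnt9a, a ligand outside the 14, averaged 3.86 FPKM. Wnt5a is the main ligand of the branch that signals without β-catenin, through Ror2 and other receptors, and Wnt5b is its close relative. Wnt16, which in mice is made by osteoblasts of cortical bone and restrains osteoclasts, took 22.5%, 33.7% and 26.5% of the summed ligand FPKM in MgPA-Gel 1, 2 and 3, and 11.8%, 29.6% and 48.4% in Gel 1, 2 and 3. The Gel libraries held both the lowest and the highest share, around all 3 MgPA-Gel libraries. Wnt5a took 13.0%, 33.1% and 27.4% in MgPA-Gel and 28.0%, 32.7% and 14.7% in Gel. It was low in 1 library of each group, MgPA-Gel 1 and Gel 3. Wnt5b took 33.1%, 15.6% and 22.3% in MgPA-Gel and 31.7%, 19.0% and 18.9% in Gel, so that it was the leading ligand in MgPA-Gel 1 and in Gel 1.

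**Figure D2:**
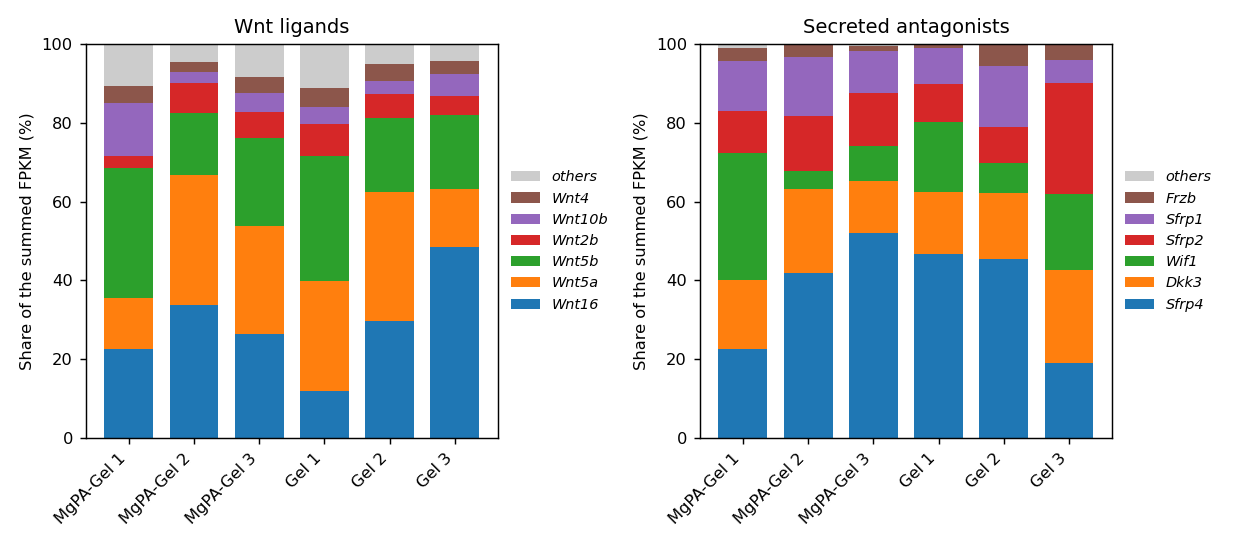
Share of the summed FPKM of the 14 ligands (left) and of the 9 secreted antagonists (right) taken by each gene, as a stacked bar per library, MgPA-Gel 1 to 3 and then Gel 1 to 3. Wnt16 takes between 11.8% and 48.4% of the ligand sum, and Sfrp4 between 18.9% and 51.9% of the antagonist sum.

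All 10 ligands that could be tested had a higher fitted mean in MgPA-Gel, beside 54.8% of all genes tested. None of the 10 passed the edgeR test (smallest unadjusted p = 0.137, adjusted p = 0.998). Their log2 fold changes ran from 0.17 to 0.90 with a median of 0.51, while their SEs ran from 0.22 to 1.12. In 0 of the 10 did all libraries of a group lie on 1 side of the other's. With 1 library left out, 8 to 10 of the 10 or 11 tested ligands had a higher mean, the lowest number without MgPA-Gel 2. Wnt9a and Wnt9b, tested ligands that are not among the 45 genes, had lower means, with log2 fold changes of -0.92 ± 0.68 and -0.45 ± 0.61 (SE).

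Wnt5a stood at 25.8, 94.8 and 74.4 CPM in MgPA-Gel 1, 2 and 3 and at 47.4, 61.8 and 32.8 CPM in Gel 1, 2 and 3. MgPA-Gel 2 and 3 were above every Gel library and MgPA-Gel 1 was below every one. The log2 fold change was 0.46 ± 0.48 (SE; unadjusted p = 0.374, adjusted p = 0.998 by edgeR), and it was 0.84 without MgPA-Gel 1 (unadjusted p = 0.0263, adjusted p = 0.936) and 0.08 without MgPA-Gel 2. Wnt5b was at 33.9, 23.0 and 31.3 CPM in MgPA-Gel, against 27.7, 18.5 and 21.7 CPM in Gel. MgPA-Gel 1 and 3 lay above the Gel libraries, and MgPA-Gel 2 lay between Gel 1 and Gel 3 (log2 fold change 0.38 ± 0.23, unadjusted p = 0.143). Wnt16 was at 14.9, 32.1 and 24 CPM in MgPA-Gel, against 6.65, 18.7 and 35.9 CPM in Gel, a wide overlap with Gel libraries at both ends (0.21 ± 0.59, unadjusted p = 0.729).

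Wnt10b, a canonical ligand that promotes bone formation in mice, was at 11.8, 3.60 and 5.85 CPM in MgPA-Gel, against 3.2, 2.77 and 5.64 CPM in Gel. MgPA-Gel 1, the library with the most muscle RNA, was the highest, and the log2 fold change of 0.87 ± 0.52 ran from 0.29 without it to 1.2 without Gel 3. The part of the muscle in this value was not tested. Wnt7b, another ligand that promotes bone formation in mice, was at 6.25, 4.8 and 13.5 CPM in MgPA-Gel, against 7.47, 4.22 and 2.20 CPM in Gel, with MgPA-Gel 3 alone above the Gel libraries (0.82 ± 0.56). Wnt2b, a canonical ligand, averaged 5.42 ± 2.94 CPM in MgPA-Gel and 4.26 ± 0.613 CPM in Gel (SD, n = 3; log2 fold change 0.35 ± 0.49). Wnt4 averaged 10.4 ± 1.96 CPM in MgPA-Gel and 9.26 ± 0.465 CPM in Gel (0.17 ± 0.22), and it varied least of the tested ligands, between 8.64 and 12.5 CPM in the 6 libraries.

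Wnt6, Wnt10a and Wnt11 were tested at low counts, with 0 to 45 counts per library. Wnt11 had 45, 17 and 21 counts in MgPA-Gel and 0, 12 and 28 in Gel, and its log2 fold change of 0.90 ± 1.12 ran from 0.32 without Gel 1 to 2.23 without Gel 3. The ligands that activate β-catenin most strongly in assays were hardly detected. Wnt1 had 1 count in each of MgPA-Gel 1, MgPA-Gel 2 and Gel 3 and 0 in the rest, Wnt3 had 2 counts in Gel 3 and 0 in the rest, and Wnt3a had 0 in all 6 libraries. A count of 0 over the 6 libraries allows up to 0.0318 CPM (3 counts over their summed sizes, counting error only). Wnt2 was detected unevenly, with 17, 1 and 3 counts in MgPA-Gel and 20, 1 and 7 in Gel.

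Of the receptors and co-receptors, through which a cell senses Wnts, none of the 6 tested passed; 3 had a higher and 3 a lower mean in MgPA-Gel, with log2 fold changes from -0.33 to 0.41. Fzd1 and Fzd2 were the most abundant Frizzled genes, at means of 24.9 and 22.3 FPKM over the 6 libraries, followed by Fzd4 at 7.09 and Fzd7 at 2.76 FPKM. Fzd8 had 0 counts in all 6 libraries, and whether the annotation used for counting places it correctly could not be checked. Fzd1 was at 62.0, 159 and 116 CPM in MgPA-Gel, against 81.2, 151 and 87.5 CPM in Gel, with a log2 fold change of 0.07 ± 0.39 (SE; unadjusted p = 0.860, adjusted p = 0.998 by edgeR). Fzd2 was at 18.9, 47.1 and 47.2 CPM in MgPA-Gel, against 32.0, 39.9 and 70.6 CPM in Gel (-0.33 ± 0.44, unadjusted p = 0.472). For both genes MgPA-Gel 1 was the lowest of all 6 libraries. With 1 library left out, the log2 fold change of Fzd1 ran from -0.26 without MgPA-Gel 2 to 0.41 without Gel 2, and that of Fzd2 from -0.55 without Gel 1 to 0.05 without Gel 3.

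Lrp5, the co-receptor whose mutations change bone mass in humans, was at 51.9, 70.1 and 69.6 CPM in MgPA-Gel, against 67.8, 70.6 and 87.5 CPM in Gel. The groups overlapped, and the log2 fold change was -0.24 ± 0.19 (unadjusted p = 0.255). Lrp6, its relative, was at 28.8, 46.8 and 49.3 CPM in MgPA-Gel, against 29.3, 42.8 and 36.2 CPM in Gel (0.21 ± 0.25). Fzd7 averaged 8.89 ± 1.42 CPM in MgPA-Gel and 6.68 ± 1.97 CPM in Gel (SD, n = 3), and Fzd4 averaged 44.9 ± 9.10 CPM in MgPA-Gel and 52.1 ± 7.26 CPM in Gel. Neither separated the groups.

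Inside the cell, Ctnnb1, which encodes β-catenin, was the most abundant of the 45 genes. It stood at 393, 577 and 532 CPM in MgPA-Gel, against 517, 457 and 705 CPM in Gel, a log2 fold change of -0.16 ± 0.25 (unadjusted p = 0.549). β-catenin also holds cells together at cadherin junctions, and its activity in signalling is set by protein stability, which RNA does not measure. Tcf7l1, a TCF factor that acts mostly as a repressor (ENSRNOG00000014753, chromosome 4, 100491798 to 100660140 in the deposited table, build not given in the sources used here), was at 16.5, 16.7 and 18.6 CPM in MgPA-Gel, against 24.3, 19.1 and 20 CPM in Gel. Every MgPA-Gel library lay below every Gel library, by a small margin between MgPA-Gel 3 and Gel 2. The log2 fold change was -0.29 ± 0.18 (unadjusted p = 0.144, adjusted p = 0.998), and all genes tested whose MgPA-Gel libraries all lay below Gel made up 3.62%.

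Tcf7 was at 8.81, 12.9 and 15.9 CPM in MgPA-Gel, against 10.6, 9.88 and 11.3 CPM in Gel (log2 fold change 0.25 ± 0.26, unadjusted p = 0.374). Tcf7l2 averaged 19.0 ± 2.77 CPM in MgPA-Gel and 21.7 ± 4.50 CPM in Gel (SD, n = 3). Lef1, which osteoblast precursors and developing lymphocytes both express, was at 8.19, 1.77 and 3.34 CPM in MgPA-Gel, against 5.28, 3.58 and 8.94 CPM in Gel. Its log2 fold change was -0.42 ± 0.62, with MgPA-Gel 2 the lowest and Gel 3 the highest, and it ran from -1.21 without MgPA-Gel 1 (unadjusted p = 0.0627, adjusted p = 0.936) to -0.00 without Gel 3. Tcf7 and Lef1 are also lymphocyte genes. Of 8 T cell markers 7 were found, with a summed level of 31.6, 52.7 and 28.8 CPM in MgPA-Gel and 29.5, 48.8 and 16.6 CPM in Gel. Of 7 B cell markers 6 were found, at 84.4, 59.8 and 38.7 CPM in MgPA-Gel and 55.2, 66.4 and 151 CPM in Gel, and no marker found in either list was at 0 in all 6 libraries. The B cell sum and Lef1 were both highest in Gel 3 and second highest in MgPA-Gel 1, and the part of lymphocytes in these values was not tested.

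Secreted antagonists were, per length, more abundant than the ligands. Their summed level was 111, 175 and 209 FPKM in MgPA-Gel and 175, 138 and 194 FPKM in Gel, and that of the ligands was 39.8, 56.8 and 54.7 FPKM in MgPA-Gel and 34.2, 37.9 and 44.6 FPKM in Gel. RNA sums of genes with different potencies do not measure a balance of proteins. Sfrp4, a decoy that binds Wnts in place of Frizzled and whose loss in humans thins cortical bone, averaged 64.6 FPKM over the 6 libraries, ahead of Dkk3 at 30.2, Sfrp2 at 24.8, Wif1 at 23.6 and Sfrp1 at 18.5 FPKM.

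Sfrp4 varied more than 4-fold among libraries, at 115, 338 and 496 CPM in MgPA-Gel, against 372, 288 and 169 CPM in Gel (highest over lowest 4.31). MgPA-Gel held both the highest and the lowest library, and the log2 fold change was 0.20 ± 0.54 (unadjusted p = 0.729). With 1 library left out it ran from -0.29 without MgPA-Gel 3 to 0.59 without MgPA-Gel 1. Sfrp1, which is related to Sfrp2 and also sequesters Wnts, was at 54.9, 103 and 85.9 CPM in MgPA-Gel, against 61.7, 83.6 and 44.0 CPM in Gel (0.36 ± 0.31). MgPA-Gel 2 and 3 were above every Gel library and MgPA-Gel 1 was below Gel 1 and Gel 2. Sfrp2 was at 28.2, 57.0 and 65.7 CPM in MgPA-Gel, against 39.3, 29.5 and 128 CPM in Gel, and Gel 3 alone set the sign of its log2 fold change, which was -0.38 ± 0.61 with that library and 0.53 without it.

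Wif1, which binds Wnt ligands outside the cell, was at 80.0, 17.6 and 41.8 CPM in MgPA-Gel, against 69.3, 24.1 and 84.3 CPM in Gel. It was high in MgPA-Gel 1, Gel 1 and Gel 3 and low in MgPA-Gel 2 and Gel 2, whichever gel was given (log2 fold change -0.35 ± 0.64). The summed level of 5 osteocyte markers, 354, 221 and 166 CPM in MgPA-Gel and 257, 168 and 357 CPM in Gel, was highest in the same 3 libraries. Most of the sum came from Dmp1 and Mepe, each highest in these 3 libraries. Phex was at 15.8, 30.7 and 15.9 CPM in MgPA-Gel, against 12.1, 11.4 and 44.5 CPM in Gel, second highest in MgPA-Gel 2, where Wif1 was lowest. Sost was at 0.438, 3.34 and 0.468 CPM in MgPA-Gel, against 2.40, 1.62 and 1.54 CPM in Gel, and Fgf23 was at 0 in MgPA-Gel 1, Gel 1 and Gel 3, the libraries where Wif1 was high. The part of osteocytes in the Wif1 values was not tested.

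Dkk2, a relative of Dkk1 that acts on LRP6, had the largest positive log2 fold change of the 37 genes, 1.73 ± 0.89 (unadjusted p = 0.0953, adjusted p = 0.998). It was at 3.50, 0.252 and 3.63 CPM in MgPA-Gel, against 0.822, 0.520 and 0.879 CPM in Gel, from 56, 4 and 62 counts in MgPA-Gel and 12, 9 and 12 in Gel. MgPA-Gel 1 and 3 were above every Gel library, and MgPA-Gel 2 was below every one, so the groups did not separate. With 1 library left out, the log2 fold change ran from 1.33 without MgPA-Gel 3 (unadjusted p = 0.246) to 2.26 without MgPA-Gel 2 (unadjusted p = 0.00364, adjusted p = 0.954), and limma-voom gave 1.08 with all 6 libraries. Dkk3, a divergent family member, averaged 141 ± 45 CPM in MgPA-Gel and 161 ± 62.5 CPM in Gel (SD, n = 3; log2 fold change -0.19 ± 0.34, unadjusted p = 0.602 by edgeR). Frzb, an SFRP of cartilage, averaged 11.4 ± 4.32 CPM in MgPA-Gel and 14.8 ± 9.58 CPM in Gel (SD, n = 3). Dkk1, a well-known antagonist in bone, had 0 counts in all 6 libraries. Whether the annotation used for counting places Dkk1 correctly could not be checked, so this 0 does not show that its RNA was absent. Sostdc1 had 1 count in MgPA-Gel 3, 2 in Gel 2 and 0 in the rest.

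**Figure D3:**
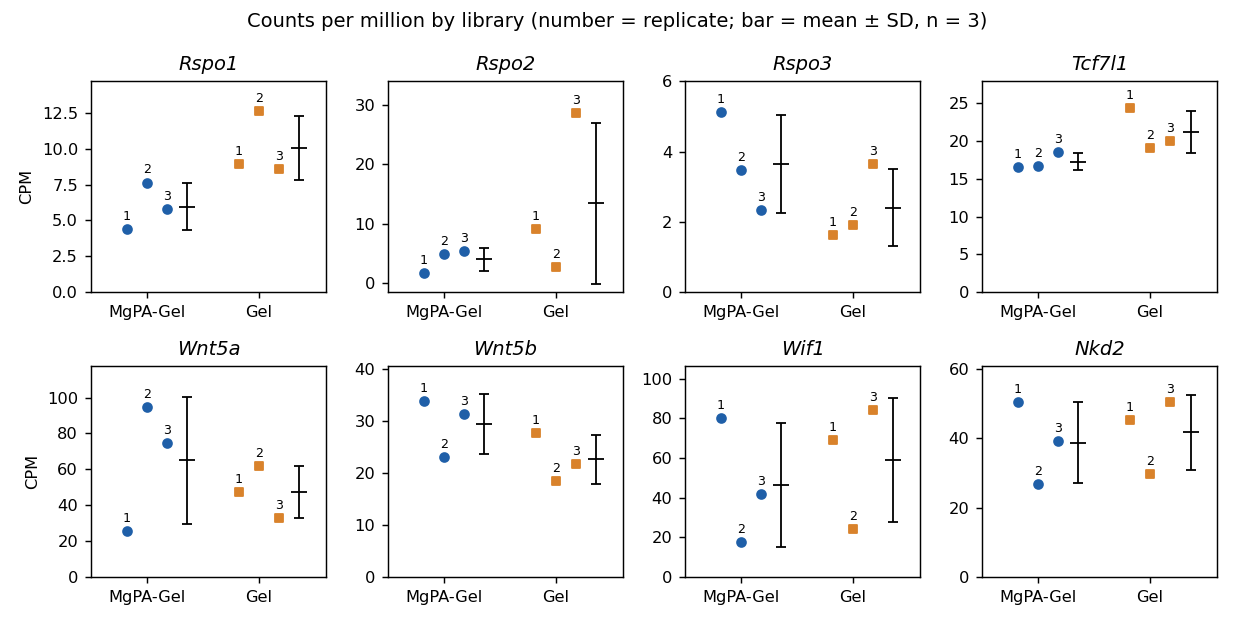
CPM of 8 genes in each library, MgPA-Gel as circles and Gel as squares, with the replicate number above each point and the mean ± SD beside it (n = 3). Rspo1 and Tcf7l1 are lower in every MgPA-Gel library than in every Gel library, Gel 3 sets the Gel mean of Rspo2, and Wif1 and Nkd2 are high in MgPA-Gel 1, Gel 1 and Gel 3.

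Of the 3 feedback targets tested, 1 had a higher and 2 a lower mean in MgPA-Gel, and none passed the test. Axin2, which encodes a scaffold of the destruction complex and is the most used readout of canonical Wnt signalling, was at 1.69, 2.02 and 3.98 CPM in MgPA-Gel, against 3.08, 3.75 and 4.69 CPM in Gel. MgPA-Gel 1 and 2 were below every Gel library, while MgPA-Gel 3 was above Gel 1 and Gel 2. The log2 fold change was -0.58 ± 0.44 (unadjusted p = 0.226, adjusted p = 0.998) and ran from -1.05 to -0.35 with 1 library left out. These values come from 27 to 68 counts in MgPA-Gel and 45 to 65 counts in Gel. Nkd1 and Nkd2 encode proteins that bind Dishevelled and dampen the signal. Nkd1, whose promoter motif is printed above with that of Axin2, averaged 8.37 ± 0.368 CPM in MgPA-Gel and 7.84 ± 2.14 CPM in Gel (SD, n = 3; log2 fold change 0.10 ± 0.27, unadjusted p = 0.732 by edgeR).

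Nkd2 was the most abundant of the 4, at 50.4, 26.8 and 39.2 CPM in MgPA-Gel, against 45.4, 29.6 and 50.4 CPM in Gel (log2 fold change -0.11 ± 0.30, unadjusted p = 0.725). Its highest 3 libraries were those of Wif1. Notum, an enzyme that inactivates Wnts by removing their lipid, had 16, 6 and 7 counts in MgPA-Gel and 7, 1 and 13 in Gel and was not tested.

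R-spondins held the member with the smallest unadjusted p. Rspo1 (ENSRNOG00000009656, chromosome 5, 142986526 to 143007831 in the deposited table) was at 4.38, 7.64 and 5.79 CPM in MgPA-Gel, against 8.91, 12.6 and 8.57 CPM in Gel. Every MgPA-Gel library lay below every Gel library, with MgPA-Gel 2 close to Gel 3. The means were 5.93 ± 1.63 CPM in MgPA-Gel and 10 ± 2.23 CPM in Gel (SD, n = 3), a log2 fold change of -0.76 ± 0.30 (unadjusted p = 0.0420, adjusted p = 0.998 by edgeR), and over all genes tested 0.844% had an unadjusted p under 0.05 on the lower side. The log2 fold change was negative in each of 18 alternative settings, from -0.98 to -0.56. The unadjusted p was 0.159 without Gel 2, 0.0636 without Gel 1, 0.0892 without MgPA-Gel 1 and 0.0976 without MgPA-Gel 3.

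Together with Tcf7l1, Rspo1 was one of the 2 members of 37 in which all MgPA-Gel libraries lay below all Gel libraries, and in 0 members did they lie above. Over all genes tested the shares were 3.62% below, 3.26% above and 6.88% in either direction, so the members' count was near that of other genes.

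Rspo2 had the largest negative log2 fold change of the 37 genes, -1.75 ± 0.87 (unadjusted p = 0.0867, adjusted p = 0.998), and this rested on Gel 3. It was at 1.75, 4.92 and 5.33 CPM in MgPA-Gel, against 9.04, 2.66 and 28.7 CPM in Gel. Gel 2 lay among the MgPA-Gel libraries, and without Gel 3 the log2 fold change was -0.56 (unadjusted p = 0.454), while without Gel 2 it was -2.24 (unadjusted p = 0.0156, adjusted p = 1). The summed level of 8 cartilage markers, of which Matn1 was at 0 in every library, was 287, 194 and 286 CPM in MgPA-Gel and 341, 142 and 538 CPM in Gel. Rspo2 and that sum were both highest in Gel 3 and second highest in Gel 1. Of the markers only Comp had this order, at 160 CPM in Gel 3 and 119 CPM in Gel 1. Acan was second highest in MgPA-Gel 3, at 199 CPM against 143 CPM in Gel 1. Col2a1, the defining collagen of cartilage, was at 109, 7.38 and 14.9 CPM in MgPA-Gel, against 63.3, 0.347 and 48.3 CPM in Gel, highest in MgPA-Gel 1, where Rspo2 was lowest. The part of cartilage in the Rspo2 values was not tested. Rspo3, another R-spondin, was at 5.13, 3.47 and 2.34 CPM in MgPA-Gel, against 1.64, 1.91 and 3.66 CPM in Gel, with overlap (0.60 ± 0.48). Relative to the other genes of its role, Rspo3 took 13.0%, 8.18% and 4.99% of the summed R-spondin and LGR FPKM in MgPA-Gel and 3.87%, 4.42% and 4.11% in Gel. Each MgPA-Gel share lay above each Gel share, which was not tested, and a share also depends on the other genes in the sum. Shares separated in the same direction for Lrp6, at 9.17% to 10.5% of the receptor sum in MgPA-Gel and 7.13% to 8.66% in Gel, and for Tcf7, at 3.11% to 4.23% of the β-catenin and TCF/LEF sum in MgPA-Gel and 2.30% to 3.06% in Gel. These were the 3 members of 45 whose shares did not overlap, and in CPM the groups overlapped for all 3. Shares are defined only within a role and depend on one another. No value over all genes can be set beside this count, so it shows no difference between the groups.

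Lgr4 was the main R-spondin receptor, at a mean of 7.78 FPKM over the 6 libraries, against 1.12 FPKM for Lgr6 and 0.210 FPKM for Lgr5. It was at 27.2, 20.8 and 27.4 CPM in MgPA-Gel, against 17.6, 15.8 and 54.5 CPM in Gel. Each MgPA-Gel library was above Gel 1 and Gel 2 and below Gel 3, and the log2 fold change was -0.22 ± 0.49 with Gel 3 (unadjusted p = 0.667) and 0.58 without it (unadjusted p = 0.0487, adjusted p = 1). It was -0.52 without Gel 2. Lgr6 was at 1.31, 2.65 and 5.91 CPM in MgPA-Gel, against 3.36, 2.66 and 3.59 CPM in Gel (0.04 ± 0.56). Lgr5, a stem cell marker in several epithelia, had 0, 20 and 10 counts in MgPA-Gel and 7, 4 and 19 in Gel.

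**Figure D4:**
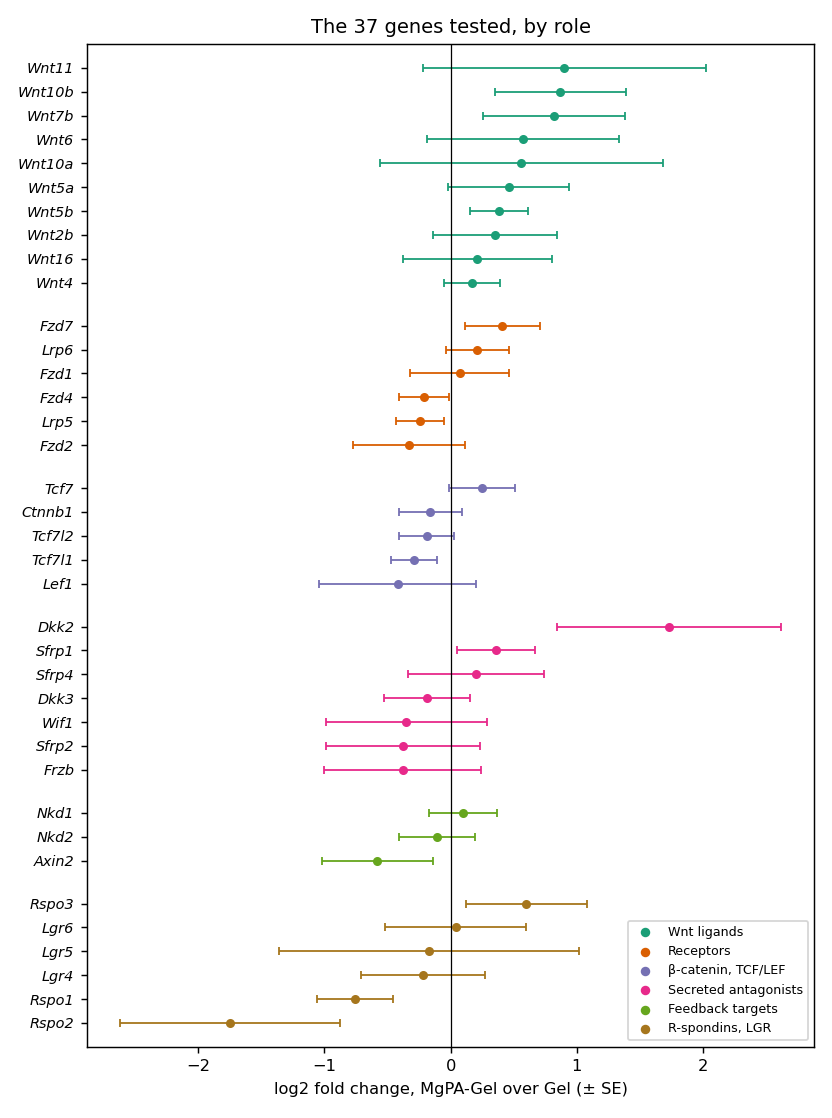
The log2 fold change of MgPA-Gel over Gel for each of the 37 genes tested, as points with bars of ± SE, grouped by role. The 10 ligands lie between 0.17 and 0.90, Dkk2 at 1.73 and Rspo2 at -1.75 are the extremes, and no gene passed the adjusted threshold.

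Single libraries often held the extreme value. MgPA-Gel 1 was the lowest library for 17 of the 37 members (45.9%), beside 28.3% of all genes tested, and Gel 3 was the highest for 15 (40.5%), beside 17.4%. MgPA-Gel 1 also had the most muscle RNA, and Gel 3 had the highest summed cartilage markers. Gel 3 was also highest for Col1a1, the main bone collagen, at 98400 CPM, and for the osteoblast markers Alpl and Bglap. It was narrowly highest for Sp7, at 61.2 CPM beside 60.7 CPM in MgPA-Gel 3, but not for Runx2, Ibsp, Spp1 and Dmp1. The part of these in the members' values was not tested. Wnt5a, Fzd1, Lrp6 and Sfrp1 had their highest 3 libraries in MgPA-Gel 2, MgPA-Gel 3 and Gel 2, and Lef1, Tcf7l2, Wif1 and Nkd2 had theirs in MgPA-Gel 1, Gel 1 and Gel 3. Each pattern held 10.8% of the members, beside 9.62% and 8.04% of all genes tested, so these patterns were about as frequent among the members as among other genes.

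**Figure D5:**
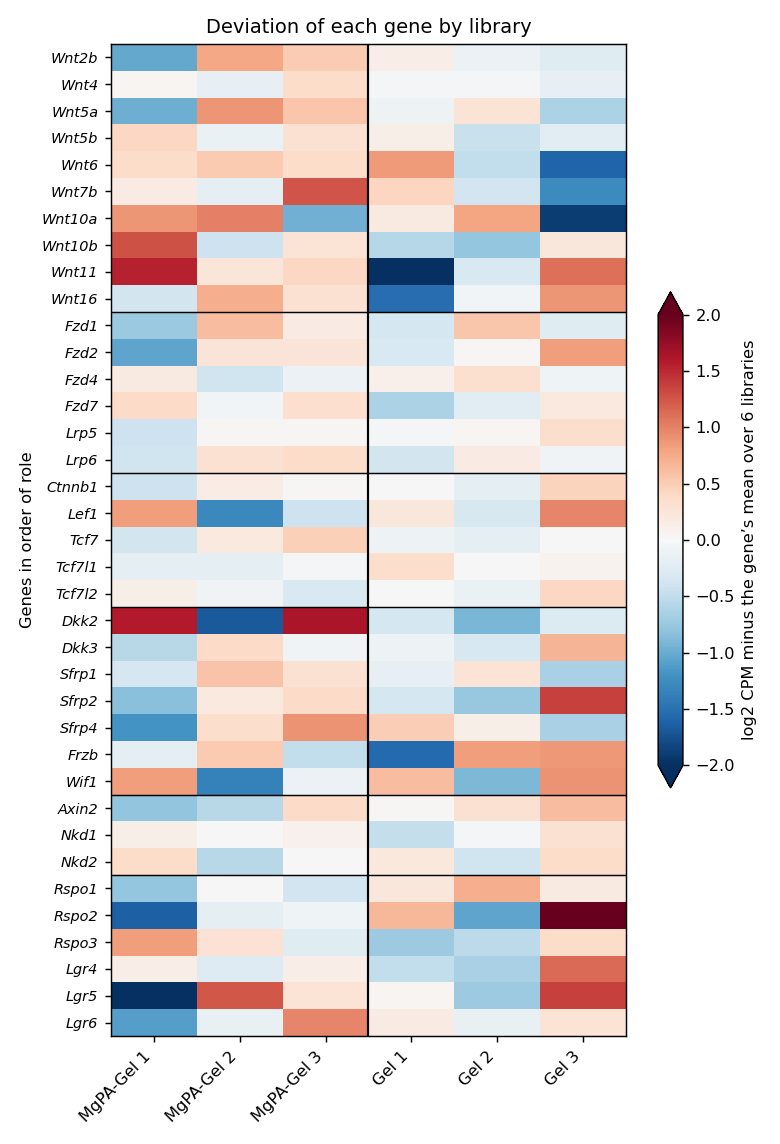
Deviation of log2 CPM from each gene's mean over the 6 libraries, for the 37 genes tested in order of role (rows) and MgPA-Gel 1 to 3 and then Gel 1 to 3 (columns), with colours limited to ± 2. MgPA-Gel 1 is the lowest library for 17 genes and Gel 3 the highest for 15.

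The rest of the Wnt pathway was examined in 8 further lists of 78 genes, of which 74 were found and 61 tested. No gene of these lists passed the test (smallest adjusted p = 0.998), 0 had an unadjusted p under 0.05, and 23 had a higher and 38 a lower mean in MgPA-Gel, and the median log2 fold change was -0.09. DESeq2 and limma-voom also called 0 of them. Both genes that lipidate and export Wnts had close means in the groups, with Wls, the carrier of Wnts to the surface, at 118 ± 51.3 CPM in MgPA-Gel and 126 ± 52.9 CPM in Gel (SD, n = 3), and Porcn, the acyltransferase, at 20.9 ± 3.99 CPM in MgPA-Gel and 21.0 ± 0.972 CPM in Gel. Of 11 other receptors tested 5 had a higher and 6 a lower mean, with Ryk at 106 ± 11 CPM in MgPA-Gel and 102 ± 19.5 CPM in Gel, Ptk7 at a log2 fold change of 0.15 ± 0.28 and Adgra2 at -0.46 ± 0.28 (SE).

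Of 5 other secreted or surface inhibitors tested, 2 had a higher and 3 a lower mean. Kremen1, a DKK receptor, differed by 0.12 ± 0.30 on the log2 scale and Apcdd1 by 0.06 ± 0.23. Dkk4 was at 7.88, 7.19 and 8.19 CPM in MgPA-Gel, against 9.18, 10.7 and 8.28 CPM in Gel, below Gel in every library but with MgPA-Gel 3 next to Gel 3 (-0.28 ± 0.22, unadjusted p = 0.243). The destruction complex and Dishevelled genes split 8 higher and 6 lower of 14 tested, and its kinases Csnk1a1, Csnk1d and Gsk3a differed by 0.04 ± 0.21, -0.07 ± 0.18 and 0.16 ± 0.16. Among 10 nuclear co-factors 5 were higher and 5 lower, with Tle5 at 0.05 ± 0.25, Pygo2, which reads histone marks for β-catenin, at -0.16 ± 0.19, and Tle3, a Groucho co-repressor, at 0.25 ± 0.34. Tle4, another Groucho co-repressor named here after its values were seen, was at 37.3, 45.9 and 32.7 CPM in MgPA-Gel, against 29.2, 31.1 and 26.0 CPM in Gel, above Gel in every library (0.42 ± 0.18, unadjusted p = 0.0529, adjusted p = 0.998). Of the 61 genes tested in the 8 lists, groups did not overlap in 1 lower (Dkk4) and 1 higher (Tle4). Over all genes tested the shares were 3.62% lower and 3.26% higher.

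Other genes known to respond to Wnt had lower means in MgPA-Gel in 8 of 9 tested, with a median log2 fold change of -0.14. Over all genes tested 54.8% had a higher mean, and 45.9% when library sizes were scaled by upper quartile factors. In none of the 9 did the groups separate. Ccn5 averaged 127 ± 47.4 CPM in MgPA-Gel and 169 ± 57.5 CPM in Gel (SD, n = 3), a log2 fold change of -0.41 ± 0.36 (SE). Twist1, a mesenchymal transcription factor, averaged 78.1 ± 8.02 CPM in MgPA-Gel and 95 ± 27.3 CPM in Gel (-0.28 ± 0.23). Ccnd1, a cyclin of the G1 phase, averaged 114 ± 32.5 CPM in MgPA-Gel and 125 ± 18.2 CPM in Gel (-0.13 ± 0.25). Most of these genes also answer to other pathways. Planar cell polarity genes, which work in the branch without β-catenin, had a lower mean in 6 of 8 tested, with Prickle1 at -0.36 ± 0.28, Vangl1 at -0.23 ± 0.19 and Daam1 at -0.23 ± 0.25.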

How the data were processed

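Per the labels' protocols, poly-T selected libraries were built from 1.3 µg of RNA. No source used here states strand, so reads of overlapping antisense genes may be included. The submitters' processing notes list edgeR 3.22.5, DESeq2 1.20.0, featureCounts 1.5.0-p3, StringTie 1.3.3b, HISAT2 2.0.5 and fastp, with no roles; the genome build was not stated in these sources. The authors deposited whole gene counts, not normalized, and FPKM of the same genes. Blank rows of the count table (11692) and its 2 unnamed columns were not used. Groups follow the titles.

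Counts went to edgeR 4.0.16 (R 4.3.3; filterByExpr, TMM, robust quasi-likelihood test, Benjamini-Hochberg adjustment over all genes tested). The common dispersion equals a coefficient of variation of 41.3% between libraries, larger than counting error except in genes of few counts. The 18 alternatives used other factors, filters, DESeq2 1.42.0, limma 3.58.1 (voom, log2(FPKM + 1) and log2(FPKM + 0.1)), a replicate block, fewer libraries, or a set of genes removed. The genes removed were those of the mitochondrial chromosome and the 6 muscle fibre markers found, so other muscle genes stayed in. Promoter windows are RefSeq's (GRCr8), and 14 members had none in the table.

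Members, lists and tests were chosen with earlier results of these data known. Every member is named. Full statistics go to members that separate the groups or have an unadjusted p under 0.05, and to the 2 of highest FPKM in each role; from other lists up to 3 genes of highest FPKM are named. Other members given at length were chosen after their values were seen.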

Additional observations from a re-analysis of the deposited data

How the results depend on the processing

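Counts of calls were recomputed under 18 alternatives. DESeq2 called 10 genes over all genes, 0 of them members, and put 2 members at an unadjusted p under 0.05 (Rspo1 and Rspo2). With 1 library left out, genes called ran from 0 to 2 (2 without MgPA-Gel 2), members at an unadjusted p under 0.05 from 0 (without Gel 1, or without MgPA-Gel 3) to 3 (without MgPA-Gel 2), and members whose groups did not overlap from 3 (without Gel 2, beside 16.5% of all genes) to 9 (without MgPA-Gel 1, beside 19.1%), since fewer libraries separate more easily. Members that did not overlap numbered 15 (28.1% of all genes) without Gel 1 and MgPA-Gel 1 and 20 (31.3%) without Gel 3 and MgPA-Gel 1, where 2 members, Sfrp2 and Wnt5a, had an unadjusted p under 0.05. Members and other Wnt pathway genes called were 0 in each of the 18. The sign of the log2 fold change was the same in every setting run for 20 of 37 members and turned in at least 1 for 17. Same-numbered libraries did not deviate together in every pair (correlations across genes of 0.25, 0.20 and -0.03 for numbers 1, 2 and 3). Differently numbered pairs ran from -0.29 to 0.06, so numbers 1 and 2 had the highest correlations of all pairs. In the main fit the numbers were not taken to pair the libraries. With the replicate block 0 members were called and 20 had a higher mean. Upper quartile factors moved the median log2 fold change of all genes by -0.06 and left 45.9% of genes higher. Wnt6, Wnt10a, Wnt11 and Lgr5 were tested at 0 to 45 counts per library, which limits their precision.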
